A study of Mus musculus with 6 samples.

Results

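The SOX, FOX and TBX transcription factors were described in WT and Tmem161a-KO MC3T3-e1 cells. Members were the array rows whose gene symbol is Sox, Fox (letters a to s) or Tbx followed by a number, leaving out rows on chromosomes 14 and 17. By this rule there were 66 members, of which 16 were SOX, 37 FOX and 13 TBX genes, among 19571 array rows with a gene symbol. MC3T3-e1 is a mouse osteoblastic cell line established from calvaria, the roof of the skull. The WT group was 3 samples of intact MC3T3-e1 cells, and the Tmem161a-KO group was 3 samples of a line edited with CRISPR/Cas9 in exon 2 of Tmem161a and isolated by limited dilution, so the KO group stands for 1 line. An effect of losing Tmem161a and a difference of this 1 line from its parent cells can therefore not be told apart here. Neither group carried a further allele or agent according to the labels. The sources used here give neither the culture medium nor the time of harvest for the arrays. They do not say that replicates were separate cultures either, so a p-value reflects only how far these samples spread, which may be technical.

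The SOX, forkhead (FOX) and T-box (TBX) families each share a DNA-binding domain, the HMG box, the winged-helix forkhead domain and the T-box, respectively. SOX proteins bend DNA in its minor groove and usually act with partner factors. Forkhead proteins can bind compacted chromatin, and the FOXO branch is moved out of the nucleus when insulin signaling through AKT phosphorylates it. T-box proteins include activators and repressors that act at fixed places and times in the embryo, and members of all 3 families are needed for the formation of cartilage, calvaria, limbs and other mesenchymal tissues.

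Expression was read as normalised intensity on a linear scale, and differences are given as log2 Tmem161a-KO minus WT with the standard error (SE) from limma over all 19571 rows. A gene was called changed where the adjusted p (Benjamini-Hochberg) was under 0.05. Levels of different genes are not compared, because each row has its own probes. Olfactory receptor genes, which belong to nasal neurons, served as background. Their 1091 rows had a 95th percentile of 6.65 on the log2 scale, an intensity of 100.1, and a member was taken as above background where the brighter of its group means exceeded that value. Between arrays of a group the correlation over all rows was 0.996 to 0.997, and between groups it was 0.991 to 0.993. The median intensity was 214 to 215 in the WT arrays and 204 to 208 in the Tmem161a-KO arrays. The Tmem161a row read 1155, 1061 and 1229 in WT and 936, 1001 and 963 in Tmem161a-KO (log2 difference -0.25, SE 0.11, adjusted p = 0.192 by limma). Where its probes lie relative to the small deletions is unknown here, so this row checks neither label.

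Of the 66 members, 4 were higher and 3 lower in Tmem161a-KO than in WT, which is 10.6% of them. The higher genes were Sox6, Sox11, Foxs1 and Tbx18, and the lower ones were Foxc1, Tbx3 and Tbx19. Over all rows 9.91% were called, 5.73% higher and 4.17% lower, and 8.94% outside chromosomes 14 and 17, so the share among the members was near the background and is not a result about the families as such. The account that follows is therefore of single genes.

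The 250 bases upstream of the transcription start are shown for the called members above background that have a single start in the RefSeq table (GRCm38.p6), which were 3 genes. Sox6 has 6 starts there, and Foxs1 and Tbx3 are named only. Capitals mark a GC box (GGGCGG) or a CCAAT box (CCAAT) on either strand, the elements of many promoters without a TATA box. The intervals are chr13:31806396-31806645 on the plus strand for Foxc1, chr12:27342719-27342968 on the minus strand for Sox11 and chr9:87731261-87731510 on the minus strand for Tbx18.
Foxc1: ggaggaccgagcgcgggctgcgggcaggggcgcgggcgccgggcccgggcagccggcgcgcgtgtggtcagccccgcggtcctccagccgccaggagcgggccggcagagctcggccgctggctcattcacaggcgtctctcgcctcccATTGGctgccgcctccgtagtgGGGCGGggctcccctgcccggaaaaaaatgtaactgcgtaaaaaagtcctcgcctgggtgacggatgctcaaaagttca
Sox11: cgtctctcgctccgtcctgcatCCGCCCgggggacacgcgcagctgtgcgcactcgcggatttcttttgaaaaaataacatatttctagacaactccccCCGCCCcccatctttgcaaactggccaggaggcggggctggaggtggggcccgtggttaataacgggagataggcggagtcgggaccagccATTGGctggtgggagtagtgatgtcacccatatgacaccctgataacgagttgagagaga
Tbx18: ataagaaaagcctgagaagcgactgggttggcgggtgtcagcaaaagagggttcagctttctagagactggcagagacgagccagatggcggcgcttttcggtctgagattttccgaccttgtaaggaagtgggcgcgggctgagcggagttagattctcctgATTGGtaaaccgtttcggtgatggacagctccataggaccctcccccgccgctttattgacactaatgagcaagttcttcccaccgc
The Foxc1 window held 1 GC box and 1 CCAAT box, the Sox11 window 2 GC boxes and 1 CCAAT box, and the Tbx18 window 1 CCAAT box. GC content was 70.8% for Foxc1, 58.0% for Sox11 and 54.0% for Tbx18. None of the 3 windows held the letters AACAAT (the SOX core), GTAAACA (the forkhead core), GGTGTGA (the T-box core) or TATAAA (the TATA box) on either strand. The motifs, which do not overlap in these windows, were chosen with the values known. Over 32851 promoter windows of the same length the shares with a match were 32.7% for the GC box, 33.8% for the CCAAT box, 9.42% for the SOX core, 3.17% for the forkhead core, 3.33% for the T-box core and 12.4% for the TATA box. Over the 57 windows of the 45 members in the table they were 59.6%, 45.6%, 5.26%, 3.51%, 1.75% and 8.77% in the same order.

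Above background were 49 members, namely 12 SOX, 27 FOX and 10 TBX genes. Of these, 4 lay above it in 1 group only, Sox6 and Tbx5 through Tmem161a-KO and Sox17 and Tbx21 through WT. Reading above background does not by itself show expression, because all 4 pluripotent markers described below did so as well. Within the 49, 6 were called, against 12.8% of the rows above background outside chromosomes 14 and 17, and within the 17 others 1 was called, against 1.44% of such rows. The median log2 difference was -0.11 over the members and -0.01 over all rows. Of the members 34.8% had a difference above 0, compared with 47.2% of all rows. By brightness, outside chromosomes 14 and 17, the share above 0 was 42.9% of the 28 members and 59.7% of the rows brighter than the median row, 33.3% of 21 members and 28.4% of the rows above background but dimmer than the median row, and 23.5% of 17 members and 37.6% of the rows not above background. Of those 21 members 1 was called, against 6.92% of such rows, and of the 28 brighter members 5 were called, against 14.3%. The bands of brightness were chosen after the values were seen. The WT and Tmem161a-KO arrays did not overlap for 23 members, 8 higher and 15 lower. Of all rows 28.9% did not overlap, 2841 higher and 2810 lower, or 28.0% outside chromosomes 14 and 17, 2551 higher and 2458 lower. The members therefore leaned to lower more than the rows did, and this lean was not tested. Of those brighter than the median row, 7 members were higher and 7 lower, against 2184 and 1361 such rows outside these chromosomes. In the dimmer band above background it was 1 and 4, against 123 and 463. Not above background it was 0 and 4, against 244 and 634. At an unadjusted limma p under 0.05 there were 7 higher and 17 lower members. Such a p was found for 24.4% of all rows, 2453 higher and 2325 lower.

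**Figure D1:**
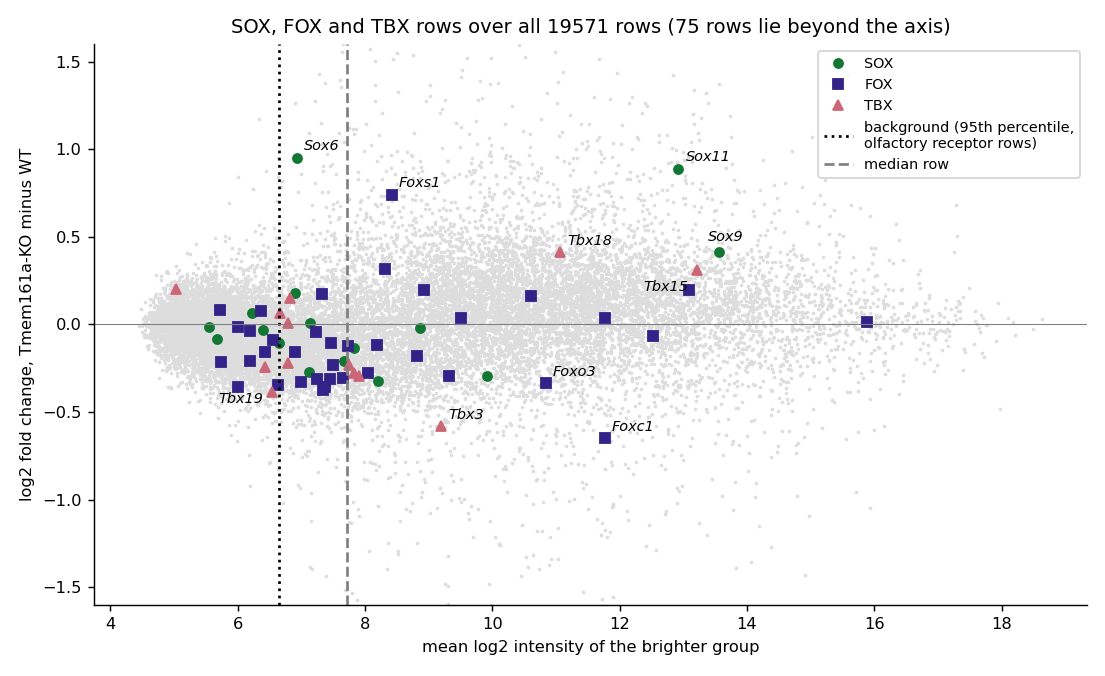
Log2 difference (Tmem161a-KO minus WT, vertical axis) against the mean log2 intensity of the brighter group (horizontal axis) for SOX, FOX and TBX rows (coloured symbols) over all 19571 rows (grey dots), with 75 rows beyond the axis. The members lie within the cloud of all rows, from -0.65 for Foxc1 to 0.95 for Sox6, and more of the dim ones lie below 0 than above it.

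Among the SOX genes, Sox6 and Sox11 rose and no gene fell. Sox6, a partner of SOX9 in cartilage that lacks an activation domain of its own, read 71.5, 60.0 and 58.9 in WT and 128, 140.2 and 102 in Tmem161a-KO. All 3 WT arrays lay below the background of 100.1 and all 3 KO arrays above it. The log2 difference was 0.95 (SE 0.14, adjusted p = 0.000255 by limma). Because WT was below background, only the distance of the KO mean from background, 0.29 on the log2 scale, is a bound on the rise. Sox5, the close relative that acts together with Sox6, read 251, 348 and 297 in WT and 206, 271 and 236 in Tmem161a-KO, with overlapping groups (log2 difference -0.32, adjusted p = 0.167 by limma).

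Sox11 belongs to the SOXC group, which is needed for the survival of skeletal and neural progenitor cells. It read 3915, 3464 and 5391 in WT and 7020.4, 7599 and 8711 in Tmem161a-KO, and every KO array exceeded every WT array. The means were 4257 ± 1008 and 7777 ± 859 (SD, n = 3 each), a log2 difference of 0.89 (SE 0.15, adjusted p = 0.0012 by limma). Sox4, of the same group, read 502, 401 and 496 in WT and 543, 503 and 351 in Tmem161a-KO. Its groups overlapped, with a log2 difference of -0.02 and a 95% interval of -0.35 to 0.31. The third gene of the group, Sox12, was not above background.

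Sox9, which is required for chondrocytes to form, read 10611, 7719 and 8953 in WT and 13364, 13328 and 9736 in Tmem161a-KO. The lowest KO array lay below the highest WT array, and the log2 difference of 0.41 did not pass the test (SE 0.15, adjusted p = 0.0954 by limma). Without KO replicate 3 it was 0.57 and passed (adjusted p = 0.0341), as it did after median centring of the arrays (0.47, adjusted p = 0.0497). Sox1, known from neural progenitors, read 879.8, 1053 and 962 in WT and 819, 722 and 817 in Tmem161a-KO, without overlap (log2 difference -0.29, adjusted p = 0.133 by limma). The other 6 SOX genes above background were Sox3, Sox13, Sox14, Sox15, Sox17 and Sox18, whose differences ran from -0.27 to 0.18 and of which none passed. Sox2, Sox10, Sox12 and Sox30 were not above background.

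**Figure D2:**
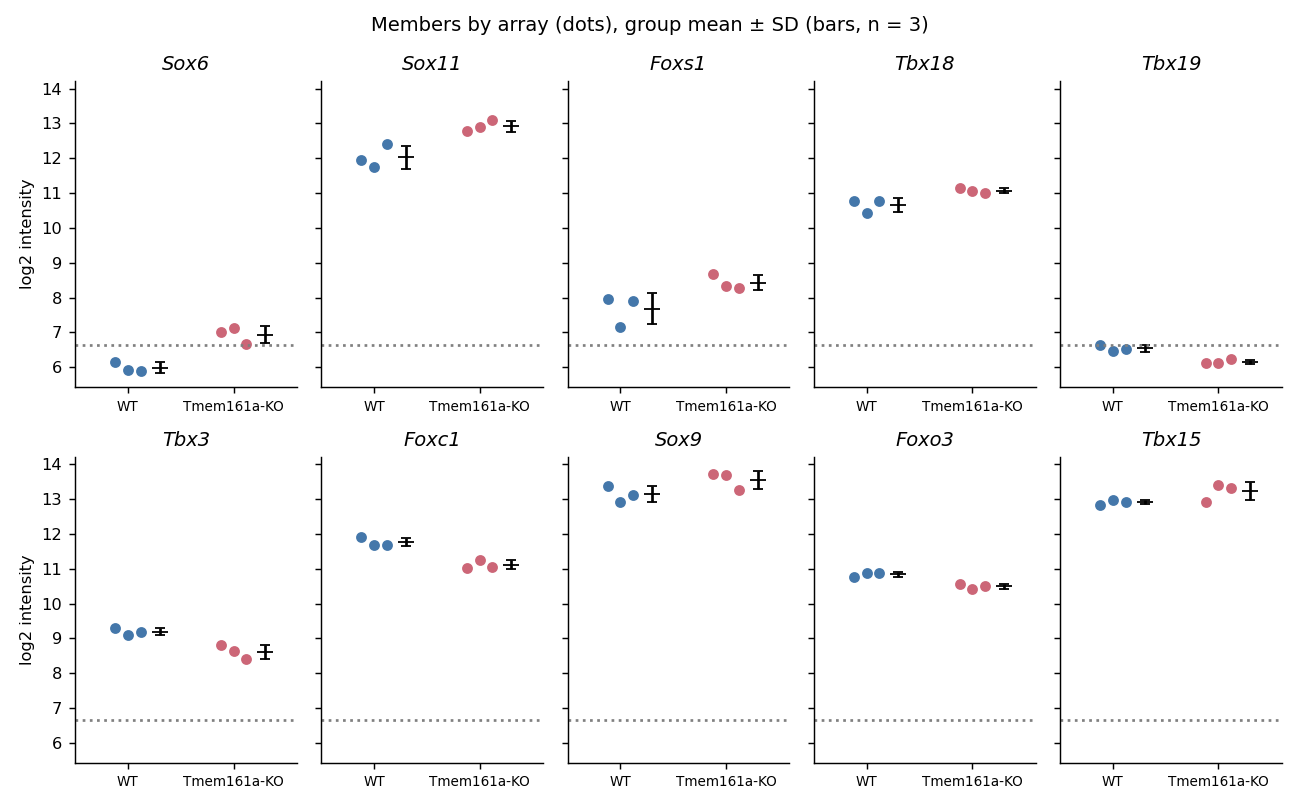
Log2 intensity of each array (dots) with the group mean ± SD (bars, n = 3) for the 7 called members and for Sox9, Foxo3 and Tbx15, which did not pass the test, and the dotted line marks the background of 6.65. The groups are apart for each called member and for Foxo3, they overlap for Sox9 and Tbx15, and Sox6 crosses the background line between WT and Tmem161a-KO.

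Among the 37 FOX genes, Foxs1 rose and Foxc1 fell. Foxc1, which is needed for the calvaria, the meninges and the front of the eye, read 3830.4, 3307 and 3301 in WT and 2090.2, 2448 and 2116 in Tmem161a-KO. The highest KO array was well below the lowest WT array. The log2 difference was -0.65 (SE 0.12, adjusted p = 0.00211 by limma). Foxc2, the paralogue that shares roles with Foxc1 in paraxial mesoderm and vessels, read 475, 346 and 556 in WT and 495, 392 and 322 in Tmem161a-KO. These groups overlapped, and the log2 difference was -0.18 with a 95% interval of -0.56 to 0.19 (adjusted p = 0.578 by limma).

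Foxs1, known from the neural crest, sensory neurons and pericytes, read 250.2, 144 and 239 in WT and 407, 320.2 and 308 in Tmem161a-KO. The groups did not overlap, and the log2 difference was 0.74 (SE 0.18, adjusted p = 0.0168 by limma). The call rested on single arrays. Without WT replicate 2 the difference was 0.48 (adjusted p = 0.0679), and without KO replicate 1 it was 0.62 (adjusted p = 0.0809).

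Foxo3 and Foxo1, which activate genes of antioxidant defence, cell cycle arrest and apoptosis and act in osteoblasts against oxidative stress, lay on either side of 0. Foxo3 read 1737, 1880.3 and 1868 in WT and 1520.2, 1381 and 1444 in Tmem161a-KO, so that every KO array was below every WT array. Its log2 difference of -0.34 did not pass the test (SE 0.11, adjusted p = 0.0691 by limma), though it passed with quantile normalization (-0.41, adjusted p = 0.0294) and where only rows above background were tested (adjusted p = 0.0482). Foxo1 read 434, 418 and 424 in WT and 498, 511 and 454 in Tmem161a-KO, again without overlap but upward (log2 difference 0.20, adjusted p = 0.299 by limma). Foxo4, the X-linked member, was above background with a difference of -0.13, and Foxo6 was not above background.

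Several FOX genes read far above background without passing the test. Foxp1, a repressor that forms dimers with other FOXP proteins, read 57337, 56014 and 65423 in WT and 58795, 65605 and 56296 in Tmem161a-KO, with a log2 difference of 0.02 and a 95% interval of -0.24 to 0.27. Foxp2, its relative, was below background in all 6 arrays, at 48.7 to 56.6 in WT and 42.2 to 51.3 in Tmem161a-KO. Foxk2 and Foxk1, repressors of autophagy and catabolic genes in fed cells, differed by 0.20 (adjusted p = 0.322) and 0.04 (adjusted p = 0.895 by limma). Foxf1 and Foxf2, mesenchymal factors under Hedgehog control, differed by -0.07 (adjusted p = 0.766) and 0.31 (adjusted p = 0.144 by limma). Foxf2 read 248, 264 and 259 in WT and 378, 272 and 315 in Tmem161a-KO, and its groups did not overlap. Foxj3 differed by 0.16 without overlap (adjusted p = 0.43) and Foxn3, a checkpoint repressor, by 0.03 with overlap (adjusted p = 0.909 by limma).

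A further 15 FOX genes were above background and none passed the test. They were Foxa2, Foxa3, Foxb1, Foxb2, Foxd1, Foxd2, Foxd3, Foxe1, Foxi1, Foxi2, Foxl1, Foxl2, Foxn4, Foxo4 and Foxq1, best known from endoderm, neural tube, kidney, ear and other lineages. Of these 14 had a difference below 0, from -0.37 for Foxb2, and only Foxl2 lay above it, at 0.17. All but Foxb1, Foxd3, Foxn4 and Foxo4 were dimmer than the median row. Outside chromosomes 14 and 17, 1685 of the 2354 rows above background but dimmer than it were below 0, against 3813 of 9472 brighter rows. Groups did not overlap for 5 of them, Foxb1, Foxd1, Foxi2, Foxl1 and Foxn4, all of which read lower in Tmem161a-KO. This count is near the 28.0% of rows that do not overlap outside chromosomes 14 and 17. Foxd1, Foxi2 and Foxl1 were dimmer than the median row, and of the 586 non-overlapping rows above background but dimmer than it 463 read lower. Foxb1 and Foxn4 were brighter than the median row. Of the 3545 non-overlapping rows in that band 1361 read lower and 2184 higher. Without KO replicate 2, Foxb2 and Foxe1 of the 15 were called lower. The 10 FOX genes not above background were Foxa1, Foxd4, Foxe3, Foxh1, Foxi3, Foxn1, Foxo6, Foxp2, Foxr1 and Foxr2, with differences of -0.36 to 0.08.

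**Figure D3:**
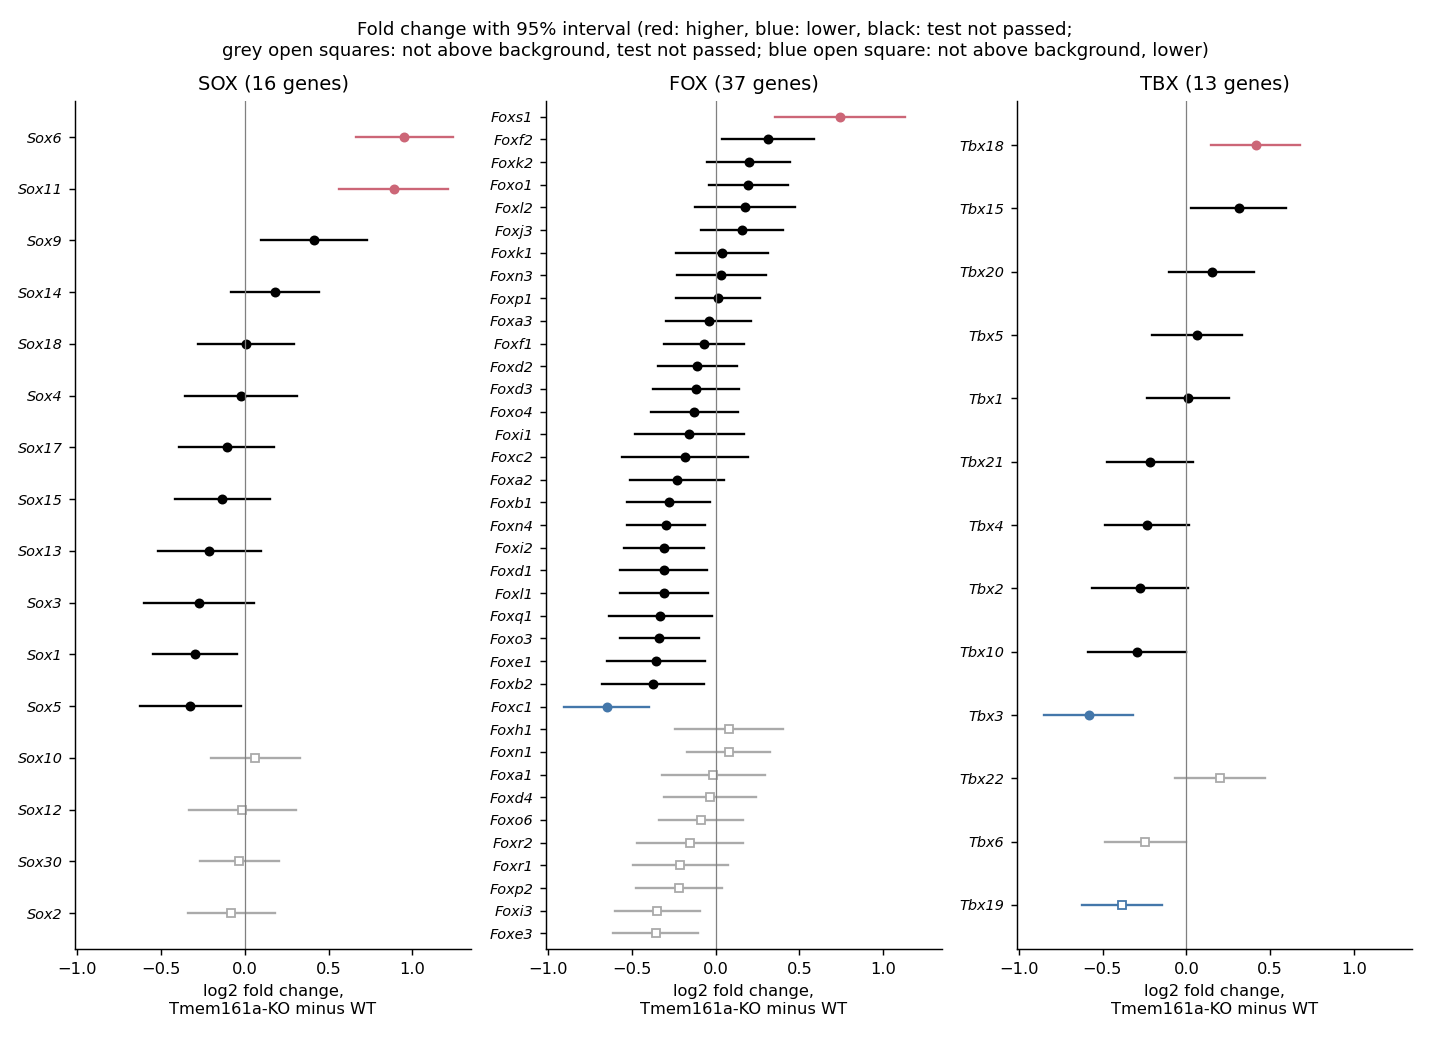
Log2 difference (Tmem161a-KO minus WT, horizontal axis) with its 95% interval for each of the 16 SOX, 37 FOX and 13 TBX genes. Red marks higher genes and blue lower ones, and filled dots are above background while open squares are not. The unpassed FOX genes lie mostly left of 0, with 26 of the 37 FOX genes below it, as are 10343 of all 19571 rows.

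Among the TBX genes, Tbx18 rose and Tbx3 fell. Tbx3, a repressor of cell cycle inhibitors that is needed in limb, mammary gland and heart conduction tissue, read 628, 549 and 580.1 in WT and 445, 396 and 339 in Tmem161a-KO. The groups were apart, with a log2 difference of -0.58 (SE 0.13, adjusted p = 0.00703 by limma). Tbx2, the repressor closest to Tbx3, read 277, 190.1 and 225 in WT and 179.7, 194 and 191 in Tmem161a-KO. Those groups overlapped (log2 difference -0.28, 95% interval -0.56 to 0.01, adjusted p = 0.223 by limma).

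Tbx18, a factor of ureter, sinus node and somite mesenchyme, read 1742, 1372 and 1741 in WT and 2262, 2124 and 2041 in Tmem161a-KO. The groups did not overlap, and the log2 difference of 0.41 lay just inside the threshold (SE 0.12, adjusted p = 0.0475 by limma). The call was lost when any 1 of the 6 arrays was left out, with differences of 0.30 without WT replicate 2 to 0.47 without WT replicate 1 and adjusted p of 0.0542 to 0.199. It was also lost with quantile normalization (0.34, adjusted p = 0.115). Tbx15, with which Tbx18 acts in the limb skeleton, read 7336, 7959 and 7784 in WT and 7800.2, 10879.5 and 10234 in Tmem161a-KO. KO replicate 1 fell within the WT range, and the log2 difference of 0.31 did not pass (adjusted p = 0.159 by limma). Without that array it was 0.46 and passed (adjusted p = 0.0434).

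Tbx19, the factor of the pituitary cells that make pro-opiomelanocortin, was called lower while not above background. It read 100.5, 88.1 and 91.2 in WT and 69.7, 69.8 and 74.7 in Tmem161a-KO (log2 difference -0.38, adjusted p = 0.0408 by limma). Both group means were below the background of 100.1, so the row gives no fold change of a measured transcript, and the call was lost without any 1 of the arrays (adjusted p of 0.0637 to 0.157). The 6 other TBX genes above background were Tbx1, Tbx4, Tbx5, Tbx10, Tbx20 and Tbx21, with differences of -0.29 to 0.15 and none that passed. Tbx6 and Tbx22 were not above background.

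Relatives were also set against each other within each array, where a shift common to the array cancels. These 8 pairs were chosen after the values were seen, and with 3 arrays a group the exact two-sided permutation test cannot go below p = 0.1. The log2 ratio of Sox11 over Sox4 was 0.91 higher in Tmem161a-KO (SE 0.32, exact permutation p = 0.1, adjusted over the 8 pairs 0.2). The ratio of Foxo1 over Foxo3 was 0.53 higher (SE 0.088, exact permutation p = 0.1) and that of Foxf1 over Foxf2 changed by -0.38 (SE 0.14, exact permutation p = 0.1). In these 3 pairs the groups did not overlap, and p was the smallest the design allows. The groups did not overlap for Sox6 over Sox5 either, but Sox6 was below background in all WT arrays, so the size of that shift is not given. The groups overlapped for Foxc1 over Foxc2 (-0.47, SE 0.29, exact permutation p = 0.3), Tbx3 over Tbx2 (-0.31, SE 0.17, exact permutation p = 0.2), Foxk1 over Foxk2 (-0.16, SE 0.17, exact permutation p = 0.5) and Tbx18 over Tbx15 (0.10, SE 0.23, exact permutation p = 0.7). At this number of arrays the test could show a difference between relatives for none of the 8 pairs, and the values are a description.

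**Figure D4:**
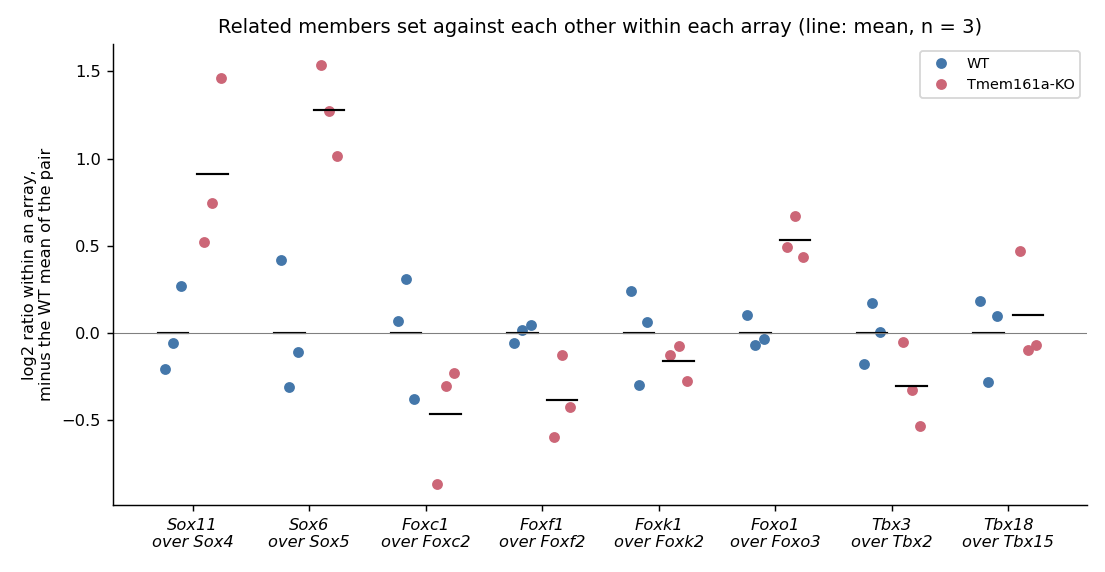
Log2 ratio of the first gene over the second within each array, minus the WT mean of that pair (vertical axis), for 8 pairs of related members, with lines at the group means (n = 3). WT (blue) and Tmem161a-KO (red) are apart for Sox11 over Sox4, Sox6 over Sox5, Foxf1 over Foxf2 and Foxo1 over Foxo3, and overlap in the other 4 pairs, and Sox6 lies below background in WT.

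Several members are neighbours in the RefSeq gene order. On chromosome 13 Foxq1, Foxf2 and Foxc1 follow each other, and their differences were -0.33, 0.31 and -0.65, of which only that of Foxc1 passed. On chromosome 8 Foxc2 lies next to Foxl1 and 1 gene away from Foxf1, with differences of -0.18, -0.31 and -0.07 and no call. Tbx3 lies next to Tbx5 (0.06) on chromosome 5, and Tbx2 next to Tbx4 (-0.23) on chromosome 11. The call of Foxc1 was thus not shared by Foxf2 beside it. Tbx5 was not called either, but its means lay at background, -0.04 from it in WT and 0.02 in Tmem161a-KO on the log2 scale. It could therefore not show whether it shared the fall of Tbx3.

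The target genes and partners of these factors were counted from lists chosen with earlier results of the data known. Each count is read against the share called, which was 9.91% of all rows. Most genes of each of these lists were above background, and 12.8% of the rows above background outside chromosomes 14 and 17 were called. Of 18 cartilage genes that SOX9, SOX5 and SOX6 control, 1 was higher and 2 were lower (1 lower without WT replicate 2), with a median log2 difference of -0.18. Col2a1, the main collagen of cartilage, fell from 1192 ± 161 to 672 ± 81.6 (SD, n = 3 each; log2 difference -0.82, adjusted p = 0.000698 by limma). Col11a2, another cartilage collagen, fell by 0.51, and it lies on chromosome 17, whose rows the choice of members left out. Outside chromosomes 14 and 17 the share called was 8.94%, so rows on them were called more often than the rest. Col27a1, which is also made in cartilage, rose by 0.95 (adjusted p = 0.000525 by limma). Acan, the cartilage proteoglycan, differed by -0.45 without passing (adjusted p = 0.0678 by limma).

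Of 23 FOXO target genes, 3 were higher and 5 were lower, with a median of -0.06. These counts depended on single arrays, with 1 to 2 higher and 1 to 4 lower when 1 array was left out. The lower count was 1 without WT replicate 1 or KO replicate 1, 2 without WT replicate 2, WT replicate 3 or KO replicate 3, and 4 without KO replicate 2, and the higher count was 1 without WT replicate 1, KO replicate 2 or KO replicate 3. Gadd45a (0.64), a stress sensor of DNA damage, Sesn2 (0.56), an antioxidant regulator, and Cat (0.39), which encodes catalase, rose. Sesn3 (-0.61), Bcl6 (-0.52), Txnip (-0.48), Irs2 (-0.44) and Bbc3 (-0.36) fell, so members of the sestrin family moved in opposite directions. Of 15 genes upstream of FOXO, Irs1, an insulin receptor substrate, rose by 0.68, and Pik3r1 (-0.83) and Pik3cb (-0.76), subunits of PI3 kinase, fell, as did Irs2, which is in both lists. Foxm1 was not analysed here, and of 21 of its cell cycle targets 1 rose, Skp2 (0.75), and none fell.

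Of 17 T-box target genes 4 were higher and 1 was lower. The count of lower genes was 0 without WT replicate 1 or KO replicate 3 and 2 without WT replicate 3. Has2, a hyaluronan synthase, rose from 1067 ± 254 to 2465 ± 735 (SD, n = 3 each; log2 difference 1.2, adjusted p = 0.000996 by limma), Tgfb2 by 0.91, Vcan by 0.60 and Cdkn1a by 0.47, while Gja1, the gap junction gene, fell by 0.50. Cdkn1a, a cell cycle inhibitor that Tbx2 and Tbx3 repress in other cells, lies on chromosome 17, as Col11a2 does. The median of the list was -0.10, although more genes were called higher than lower. Of 10 corepressor genes, which were the TLE and CTBP genes with Hdac1 and Hdac2, only Ctbp2 was called (0.44). None was called without WT replicate 1, WT replicate 2, KO replicate 1 or KO replicate 2. Of 11 further transcription factor genes outside the rule Tcf7l1, an HMG-box factor of the Wnt pathway, rose by 0.57 and Tcf7l2 fell by 0.38. None of the 11 was lower when any array other than WT replicate 2 was left out.

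Of 33 partner factors of skeletal and mesenchymal cells 6 were higher and 3 were lower, with a median of 0.02. With 1 array left out 3 to 6 were higher, the lowest count without WT replicate 1 or KO replicate 3, and 2 to 3 were lower. The homeobox genes Msx2 (1.38, adjusted p = 4.96e-06), Dlx5 (1.15, adjusted p = 0.000141) and Alx4 (0.73, adjusted p = 0.00328 by limma), which pattern calvaria and limbs, rose. Dlx6 was called higher as well, but its WT mean lay below background and its KO mean 0.52 above it on the log2 scale, so the rise has only that bound. Runx1 (0.63) and its partner Cbfb (0.43) rose too. Prrx2, a homeobox gene of mesenchyme, fell by 0.68 and Lmx1b by 0.51. Pitx1 was called lower from a WT mean 0.32 above background to a KO mean below it.

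Cell type markers were read beside these genes. Of 9 osteoblast markers measured, 5 were above background. Col1a1, Col1a2 and Sparc were bright in all arrays, with group means from 158953 to 407281, and differed by -0.16, -0.11 and 0.03. Sp7, which encodes osterix, the osteoblast factor, rose from 174 ± 12.1 to 849 ± 154 (SD, n = 3 each; log2 difference 2.27, adjusted p = 3.68e-08 by limma). Alpl, Ibsp, Dmp1 and Phex, markers of mineralizing osteoblasts and osteocytes, were not above background in either group, while Bglap, the osteocalcin gene, was, at 267 ± 32.0 in WT and 216 ± 10.9 in Tmem161a-KO (log2 difference -0.30, adjusted p = 0.133 by limma). Of 13 chondrocyte markers 8 were above background, none rose and 2 fell, the Col2a1 and Col11a2 already named, and their summed intensity was 4370.2 to 5073 in WT and 3409.8 to 3573 in Tmem161a-KO. Within the sum, Col2a1 went from a mean of 1192 to 672 and Col11a2, on chromosome 17, from 1372 to 959. The sum moved opposite to Sox6 and Sox9 and in the direction of Sox5, and neither Sox9 nor Sox5 passed the test. Its part in the result was not tested.

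Of 6 neural markers 3 were above background, Tubb3 rose by 1.28 and Map2 fell by 0.83. The summed intensity was 2925 to 3308 in WT and 3921 to 5557 in Tmem161a-KO, and Tubb3 alone went from a mean of 1521 to 3748. The median log2 difference of the list was -0.13. Stmn2, Rbfox3, Elavl3 and Elavl4 differed by -0.15, -0.14, -0.12 and -0.06 without passing. Tubb3 moved in the direction of Sox11, Map2 against it, and their part in the result was not tested. Of 8 endothelial markers 1 was above background (Tie1), of 3 blood markers 1 (Cd3e) and of 4 melanocyte and Schwann markers 1 (Mitf), and the defining genes Pecam1 and Ptprc were not. All 4 pluripotent markers (Pou5f1, Nanog, Zfp42 and Dppa5a) read above background in a line that is not pluripotent, at a summed intensity of 469.7 to 533 in WT and 450.4 to 524 in Tmem161a-KO. None of these 4 lists held a called gene. Of 6 epithelial markers 4 were above background (Cdh1, Krt8, Krt14 and Krt18), of 6 skeletal muscle markers 3 (Myog, Ckm and Acta1) and of 6 adipocyte markers 2 (Lpl and Cebpa), while Epcam, Myod1 and Adipoq were not. Each of these lists had 1 gene called lower. Lpl fell by 0.45, and Krt18 and Ckm went from WT means 0.29 and 0.05 above background to KO means below it, so their falls were not sized. The epithelial call was lost without any array other than KO replicate 3, the muscle call was lost without WT replicate 1, WT replicate 2 or KO replicate 3, and the adipocyte call without WT replicate 2 or KO replicate 3. In samples of this kind a change in the share of cells that express a gene and a change in RNA per cell cannot be told apart.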

How the data were processed

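RNA of 3 WT and 3 Tmem161a-KO MC3T3-e1 samples was hybridized to Clariom S mouse arrays. Normalization by the authors used GeneSpring, followed by work in Transcriptome Analysis Console, per the study's methods. What they deposited is 1 column of linear, normalized intensity per array, without pooling. The sources used here do not give the background correction, the summarization of probes or detection calls, and the number of arrays limits the precision.

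Of 22205 rows, 19571 had a gene symbol from the platform's annotation and were analysed. All 66 members matched a RefSeq mouse gene. The log2 of each value was taken without a pseudocount or rescaling. Tmem161a-KO was set against WT in limma 3.58.1 under R 4.3.3 (lmFit, then eBayes, no covariate, Benjamini-Hochberg over all 19571 rows, threshold 0.05). The test was tried on simulated data with known changes. Members, gene lists, motifs and pairs were chosen with earlier results of these data known. Named with values were all called members, the 10 brightest uncalled ones, and a list of genes tied to skeletal or mesenchymal cells, and of each gene list up to 4 called genes with the largest change, to which further called genes were added after their values were seen. Promoters come from RefSeq (GRCm38.p6). Same-numbered samples deviated together with correlations of 0.02 to 0.09, so the numbers were not taken as pairs. Alternatives were quantile normalization, centring each array, other variance models, array weights, the methods' t-test, other sets of rows and thresholds, a replicate block and leaving out each array.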

Additional observations from a re-analysis of the deposited data

How the results depend on the processing

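Sox6, Sox11, Foxc1 and Tbx3 kept their direction and call in 16 of 18 alternatives and lost the call with the methods' t-test after Benjamini-Hochberg adjustment (adjusted p of 0.0909 to 0.146) and where at least a 2-fold change was asked for. Foxs1 lost its call in 6, Tbx18 in 11 of 18 and Tbx19 in 13 of 17. Against 4 members higher and 3 lower, the methods' t-test gave 4 and 11 unadjusted and 0 and 0 after adjustment, a threshold of 0.01 gave 2 and 2, and a 2-fold limit 0 and 0. Over all 19571 rows these settings gave 2038 higher and 1878 lower, 114 and 76, 581 and 382, and 154 and 126, in the same order. Leaving out 1 array gave 2 to 4 higher, the 2 without WT replicate 2, and 2 to 4 lower. The 4 lower were found without KO replicate 2, where Foxb2 and Foxe1 were called beside Foxc1 and Tbx3. Quantile normalization gave 3 and 3 and centring each array 5 and 2, and the median over all rows moved from -0.01 to 0.05 with centring. Over all rows 1122 were higher and 817 lower, 1619 and 614 with centring, and 893 and 823 with quantile normalization.

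Over all lists 20 genes were higher and 18 lower. The t-test gave 29 lower unadjusted, and 3 and 0 after adjustment, a threshold of 0.01 gave 13 and 7, and a 2-fold limit 5 and 0. Leaving out 1 array gave 13 to 17 higher, the 13 without WT replicate 1, and 9 to 15 lower, with 9 without WT replicate 1, 10 without WT replicate 2, 11 without KO replicate 1 and 10 without KO replicate 3. Members above background numbered 56 against the 90th percentile of olfactory receptor rows, 38 against the 99th, and 45 where both group means had to pass. Sox6 was not among the 38.

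The log2 differences nearest to 0 changed sign without a call. With quantile normalization Foxp1 was -0.021, Foxk1 -0.055 and Foxn3 -0.017, and with centring Sox4 was 0.041. With 1 array left out Foxp1 ran from -0.047 to 0.085, Foxk1 from -0.066 to 0.12, Foxn3 from -0.056 to 0.11 and Sox4 from -0.14 to 0.17.

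With the replicate number as a block, which the check of the samples did not bear out as pairing, 4 members were higher and 2 lower, as Tbx19 lost its call (adjusted p = 0.0514), and 20 listed genes were higher and 17 lower. No other member changed its call under the block. Where a call was lost the cause was not tested. A rise from below background, as for Sox6, cannot be sized on these arrays.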

Other observations

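The 5 SOX and FOX rows on chromosomes 14 and 17, which the choice of members left out, were all above background and none passed the test. Foxn2 read 2930.4, 3209 and 2934 in WT and 3058, 3215 and 3046 in Tmem161a-KO, and Foxp4 read 1460.0, 1371 and 1464 in WT and 1485, 1663 and 1429 in Tmem161a-KO, so that both overlapped between groups (log2 differences 0.04 and 0.09). Sox8, the relative of Sox9 and Sox10, differed by 0.04 with overlap. Sox7, an endothelial factor, read 290.3, 298 and 339 in WT and 265, 272 and 269 in Tmem161a-KO, without overlap (log2 difference -0.20, adjusted p = 0.305 by limma), and Sox21, known from neural progenitors, differed by -0.27 with overlap (adjusted p = 0.212 by limma).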
